A study of Mus musculus with 33 samples.

Results

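The comparison described here is that of CD1530 with AGN after 6 hours of induction, the earliest time at which both conditions were collected. It takes the 3 libraries of each condition at that time, 6 of the 33 libraries of the series, and covers all 17120 genes of the count table. The cells were mouse embryonic stem cells derived from blastocysts carrying the ScxGFP reporter, a transgene that reports the tendon transcription factor scleraxis. Embryoid bodies were formed with the BMP inhibitor LDN-193189 and specified toward paraxial mesoderm (PM) with the Wnt agonist CHIR and LDN-193189. The PM medium of this protocol could also hold AGN per the methods of the study, so that both conditions may descend from cells already given that compound. The cells were then given TGFβ1, the hedgehog agonist SAG and FGF2 in both conditions, together with either CD1530 or AGN. CD1530 is an agonist of retinoic acid receptor γ (RARγ), and AGN is an inverse agonist for the whole family of these receptors (RARs). The CD1530 condition leads to tendon cells and the AGN condition to fibrocartilage cells in this protocol. There was no arm without either compound, so what CD1530 adds and what AGN takes away cannot be told apart, and CD1530 was given at a higher molar dose than AGN. Several stem cell lines were in use, and which line gave which library is not stated in the sources used here. The 3 PM libraries, collected before induction, are given beside the 6 as a reference level only. They differ from them also in medium and may differ in culture form.

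Retinoic acid is made from retinol in 2 oxidation steps and acts through the RARs, nuclear receptors that pair with retinoid X receptors (RXRs) on DNA. Without ligand the receptors hold corepressors at their target genes, which an agonist releases and an inverse agonist strengthens. In the trunk of the embryo, retinoic acid is made in the somites and the anterior presomitic mesoderm, where it opposes FGF signalling and sets the anterior expression of Hox genes. The genes that answer it most directly include the enzymes that destroy it, which makes them a common measure of RAR activity.

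The classical RAR binding site is a direct repeat of the hexamer AGGTCA with 5 bases between its copies. Each copy could be AGGTCA, its variant with the letters AGTTCA, or the same with a first G, which gives GGGTCA, or in the variant GGTTCA, and both strands were searched in the RefSeq promoters of GRCm38.p6, from 250 bases before to 50 after each start. Such a repeat was found in 32 of 32851 promoters (0.0974%). It was in 2 of the 231 promoters of genes higher with CD1530, in 0 of the 133 promoters of genes lower with CD1530, and in 5 of the 14572 promoters of genes not called. Both promoters of the first kind belong to genes at the centre of the results, Rarb, which encodes RARβ, and Cyp26a1, which encodes a cytochrome P450 that degrades retinoic acid. They are shown with the matched repeat in capitals. The Rarb promoter lies at chr14:16575427-16575726 on the minus strand with the repeat at bases 198 to 214, and the Cyp26a1 promoter at chr19:37697558-37697857 on the plus strand with the repeat at bases 219 to 235, read from the other strand.
Rarb: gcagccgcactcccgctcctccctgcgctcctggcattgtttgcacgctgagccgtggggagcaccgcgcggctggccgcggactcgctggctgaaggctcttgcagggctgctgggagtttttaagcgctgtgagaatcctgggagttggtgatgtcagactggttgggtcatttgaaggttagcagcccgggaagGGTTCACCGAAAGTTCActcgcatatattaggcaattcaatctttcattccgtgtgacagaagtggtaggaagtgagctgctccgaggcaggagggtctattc
Cyp26a1: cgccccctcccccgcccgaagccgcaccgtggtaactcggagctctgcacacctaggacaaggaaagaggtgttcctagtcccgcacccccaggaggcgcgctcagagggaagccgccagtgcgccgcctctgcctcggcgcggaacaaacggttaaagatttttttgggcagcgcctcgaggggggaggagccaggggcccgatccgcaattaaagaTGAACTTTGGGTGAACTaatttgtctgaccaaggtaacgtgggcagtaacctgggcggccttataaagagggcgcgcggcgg
No such repeat was in the listed windows of Cyp26b1, Dhrs3, Stra6, Rarg, Hoxa5, Hoxb1, Hoxa3, Meis2 or Hic1, described below. With 1 base between the copies the repeat was found in 73 promoters (0.222%) and in 0 of the promoters of called genes, and with 2 bases in 88 (0.268%), of which 1 belonged to a gene higher with CD1530, Tinagl1. These matches describe letters in a 300-base window and say nothing on binding.

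The 6 libraries held 19248178 to 22407481 counts each, with 0.84 to 0.988% of counts in mitochondrial genes and 2.967 to 3.148% in ribosomal protein genes. Within AGN, the chi-square statistic per gene between libraries was 1.62 to 1.72. Within CD1530 it was 3.83 between replicates 1 and 2, 2.87 between replicates 1 and 3 and 2.18 between replicates 2 and 3, so that CD1530 replicate 1 stood farthest from the others. The name PM was checked against markers. Per kilobase of exon, the median of 10 paraxial mesoderm markers in CPM, counts relative to the library total, was 2.71 in PM, 2.15 in CD1530 and 2.32 in AGN at 6 hours, and that of 11 pluripotency markers was 133 in PM, 74.4 in CD1530 and 78.6 in AGN. In PM the pluripotency median thus stood above the paraxial mesoderm median. Summed without scaling by length, the 10 paraxial mesoderm markers held 89.1 to 95.8 CPM in PM, 162.8 to 174.6 in CD1530 and 154.9 to 161.3 in AGN. Their median and their sum thus differed from PM in opposite directions. Among the paraxial mesoderm markers, Tbx6 and Msgn1, which mark presomitic cells, were at 5.30 and 5.52 CPM per kb in PM, while the stem cell factor Pou5f1 was at 312. In bulk RNA, fewer cells of a type and less RNA per cell cannot be told apart, and this holds for every level below.

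The response at 6 hours was mostly small in size, with genes of retinoid handling among those of largest fold. Of 17120 genes, 329 (1.92%) were called at an adjusted p under 0.05 by edgeR's quasi-likelihood test, 210 (1.23%) higher and 119 (0.695%) lower with CD1530 than with AGN. The spread in this test was estimated from 1 fit of all 33 libraries of the series, the other times included. A fit to the libraries of the compared groups alone called 804, 408 higher and 396 lower, and 704 with a replicate block. Over all 17120 genes the median log2 fold change was -0.0031. By the same test, 2008 of the 17120 genes had an unadjusted p under 0.05. Counts at that limit in the gene lists below are to be read against this share. Among the higher genes the median size was 0.30 on the log2 scale, and 49 of 210 reached 0.5 and 11 reached 1. Among the lower genes it was 0.25, and 11 of 119 reached 0.5 and 1 reached 1. The CD1530 and AGN libraries did not overlap in 210 of the 210 higher and 117 of the 119 lower genes, against 21% of all genes, 10.2% with CD1530 above and 10.9% with CD1530 below. Of the called genes, 204 and 117 were protein coding, and 9 had a mean of under 50 counts over the 6 libraries. Leaving out 1 library gave 139 to 165 higher and 53 to 134 lower genes, and the total fell more than 1.5 times without CD1530 replicate 1 (218), CD1530 replicate 3 (214), AGN replicate 1 (200) and AGN replicate 3 (196). The groups did not overlap in any gene named below as higher or lower. Overlap was read from the same 6 libraries that gave the calls, so its absence describes the levels and adds no separate support. For the genes ranked by largest fold it was also a condition of being named. CD1530 replicate 1 was the lowest of its group in 91 of the 210 higher genes and in 64 of the 119 lower genes.

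**Figure D1:**
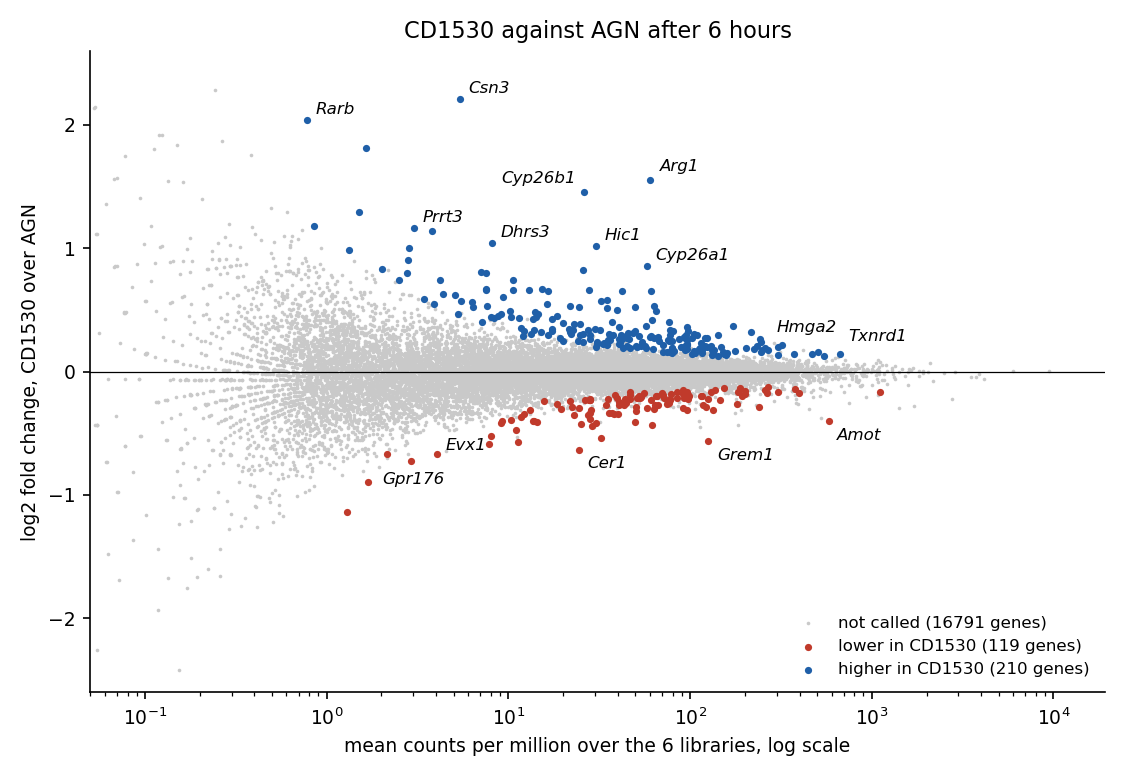
Log2 fold change of CD1530 over AGN at 6 hours against the mean CPM of the 6 libraries on a log axis, with 1 point per gene. The 210 genes higher (blue) and the 119 lower (red) with CD1530 mostly lie within 1 of 0 on the log2 scale, 16 genes lie outside the axis limit of 2.6 and 86 genes under 0.05 CPM are not drawn.

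Of the enzymes that remove retinoic acid, Cyp26a1 and Cyp26b1 were higher with CD1530. Cyp26a1 (ENSMUSG00000024987, chromosome 19, 37697798 to 37701536 on the plus strand of GRCm38) had 74.9, 73.3 and 74.2 CPM in the 3 CD1530 libraries and 42.8, 39.8 and 40.5 in the 3 AGN libraries. Every CD1530 library was above every AGN library, and the means of 74.1 ± 0.807 and 41.01 ± 1.57 (SD, n = 3) differed with an adjusted p of 7.76e-16 (log2 fold change 0.85 ± 0.05, SE). Both conditions stood far above PM, where the libraries had 0.191, 0.519 and 0.485 CPM. Cyp26b1 (chromosome 6, 84571414 to 84593908, minus strand) had 32.95, 42.2 and 39.6 CPM with CD1530 and 14.96, 13.3 and 13.6 with AGN. The groups were again apart (log2 fold change 1.46 ± 0.09, adjusted p = 1.05e-14), and the PM libraries had 10.3, 11.8 and 11.1 CPM, with a log2 fold change over PM of 0.33 for AGN (adjusted p = 0.00475) and 1.79 for CD1530. The third enzyme, Cyp26c1, was not called (log2 fold change 0.54 ± 0.35, adjusted p = 0.613), at mean levels of 0.968 and 0.666 CPM.

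Genes that act on the supply of retinoic acid moved in both directions. Dhrs3, which turns retinaldehyde back to retinol, had 10.8, 11.8 and 10.3 CPM with CD1530 and 5.03, 4.93 and 6.06 with AGN. It was higher in every CD1530 library (log2 fold change 1.04 ± 0.10, adjusted p = 1.25e-09), and AGN was above the PM mean of 4.003 CPM by 0.41 on the log2 scale (adjusted p = 0.00321). Stra6, a membrane transporter of retinol, was at 69.4, 75.3 and 77.9 CPM with CD1530 and 45.3, 48.4 and 48.2 with AGN. The groups did not overlap and CD1530 was higher (log2 fold change 0.65 ± 0.06, adjusted p = 3.65e-09). Rdh10, which oxidises retinol to retinaldehyde, went the other way, with 41.3, 39.1 and 41.8 CPM under CD1530 and 49.4, 47.9 and 44.9 under AGN (log2 fold change -0.22 ± 0.06, adjusted p = 0.0323). That call was lost, with adjusted p up to 0.213, when any single library other than AGN replicate 3 was left out. Aldh1a2, which makes retinoic acid from retinaldehyde in mesoderm, was at a mean of 48.7 CPM with CD1530 and 41.98 with AGN and was not called (log2 fold change 0.21 ± 0.07, adjusted p = 0.0832). Of the 16 measured genes of retinoid metabolism and binding, 5 were higher, 1 was lower and 10 were not called, with a median log2 fold change of 0.23. Aldh1a1, Bco1 and Lrat were not analysed here.

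Among the receptors, Rarb had the largest fold difference. Its libraries held 1.39, 1.201 and 1.19 CPM with CD1530, 0.412, 0.195 and 0.289 with AGN and 0.144, 0.0472 and 0 in PM. The CD1530 libraries were all above the AGN libraries (log2 fold change 2.04 ± 0.33, adjusted p = 0.000111), at a low level with a mean of 17 counts over the 6 libraries. The gene shares 4624 bases with Top2b on the opposite strand, whose own log2 fold change was 0.11, and the strand setting of the counting is not stated in the sources used here. Of the 83 genes named as higher or lower in the lists and rankings used here, 9 share bases with another gene of the table, 8 of them on the opposite strand, and besides Rarb these are Evx1, Tgm2, Junb, Nfix, Bmp4, Pbx2, Hoxa3 and Hoxa5. Rarg, which encodes the receptor that CD1530 binds, had 49.03, 50.8 and 47.2 CPM with CD1530 and 40.4, 37.4 and 43.8 with AGN, without overlap (log2 fold change 0.27 ± 0.05, adjusted p = 0.00136). Rara was at means of 58.5 and 56.7 CPM and was not called (log2 fold change 0.04, adjusted p = 0.789). Per kilobase of exon, Rarg was at 11.5 and 9.51 CPM in CD1530 and AGN, Rara at 13.4 and 13 and Rarb at 0.239 and 0.0567. The other 10 of the 12 receptors and cofactors, with the RXRs, corepressors and coactivators among them, were not called, and the median of the 12 was -0.03.

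**Figure D2:**
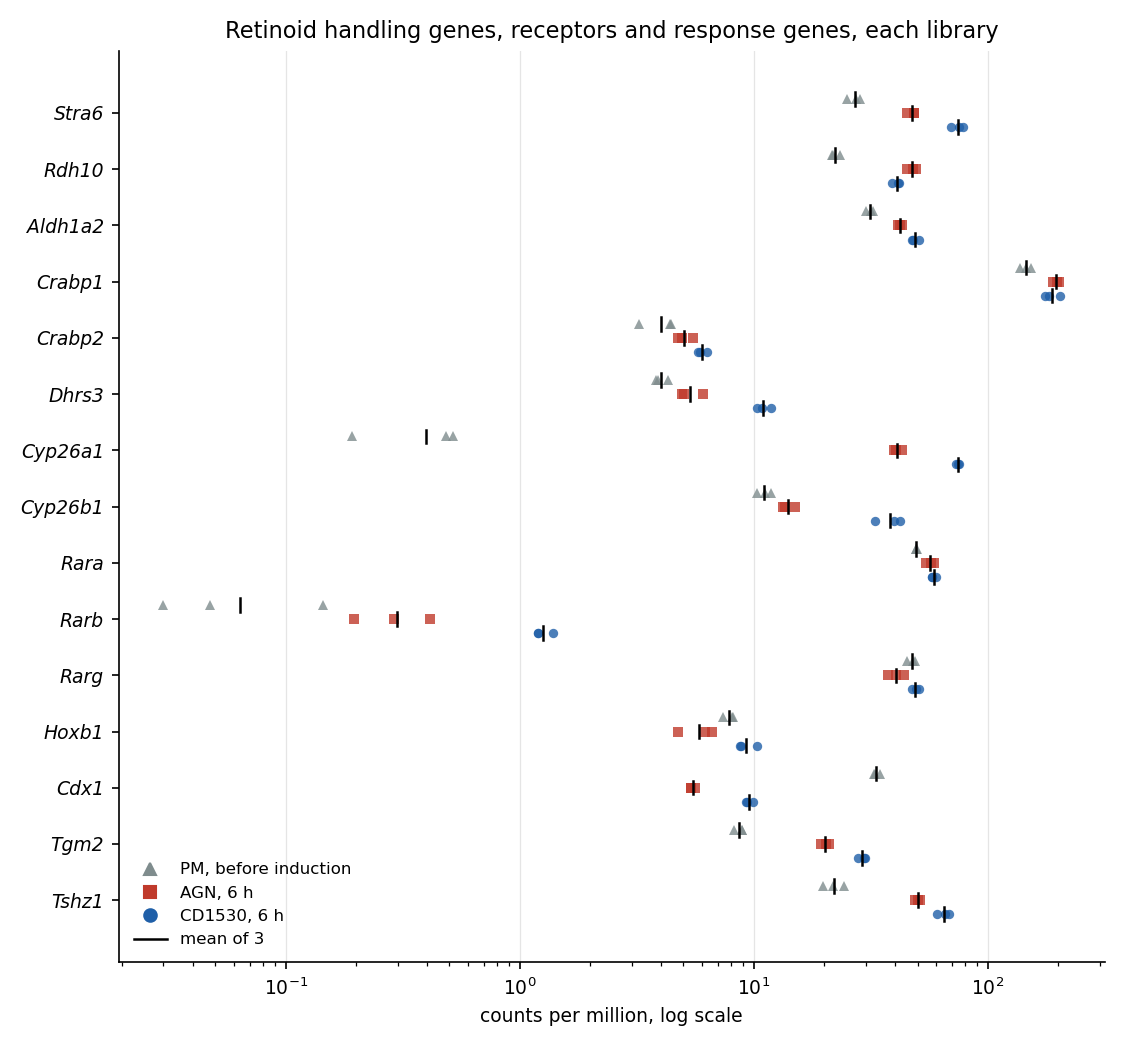
CPM of retinoid handling genes, receptors and response genes in each library, on a log axis, for PM, AGN and CD1530 with the mean of 3 as a black bar, values under 0.03 CPM being drawn at 0.03. Cyp26a1 lies near 74 CPM in the CD1530 libraries and near 41 in the AGN libraries, both far above PM, while Cyp26b1 and Dhrs3 in AGN lie nearer to PM than in CD1530.

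Of 10 other genes known to answer retinoic acid, 4 were higher, 0 were lower and 6 were not called, all 10 had a positive sign, and their median log2 fold change was 0.37. Cdx1, a homeobox gene of the posterior body, had 9.25, 9.92 and 9.33 CPM with CD1530 and 5.399, 5.61 and 5.39 with AGN. The groups did not overlap (log2 fold change 0.80 ± 0.12, adjusted p = 3.33e-05), and both lay below PM, at 32.7, 32.8 and 34.7 CPM. Tgm2, a transglutaminase, was at 29.7, 29.4 and 27.8 CPM with CD1530 and 19.4, 20.9 and 20.4 with AGN (log2 fold change 0.52 ± 0.06, adjusted p = 4.70e-07). Tshz1, a zinc-finger gene of the trunk, was at 60.4, 68.5 and 65.6 CPM with CD1530 and 48.8, 50.4 and 51.3 with AGN (log2 fold change 0.37 ± 0.07, adjusted p = 0.000451). Hoxb1, an anterior Hox gene, was at 8.76, 8.81 and 10.3 CPM with CD1530 and 4.76, 6.64 and 6.16 with AGN, again with every CD1530 library above every AGN library (log2 fold change 0.67 ± 0.14, adjusted p = 0.00248). Its call was lost without AGN replicate 1 (adjusted p = 0.062). Stra8, a germ cell gene used as a marker of retinoic acid, was at mean levels of 0.2004 and 0.0468 CPM and was not called (adjusted p = 0.235).

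The Hox genes, which give cells their position along the body axis, were mostly not called, at 3 higher and 0 lower of 38 measured, with a median of -0.04. The 3 were Hoxb1, Hoxa3 and Hoxa5, all from the anterior to middle part of their clusters. Hoxa5 had 9.004, 8.18 and 9.93 CPM with CD1530 and 5.31, 4.69 and 5.49 with AGN (log2 fold change 0.81 ± 0.12, adjusted p = 1.71e-05). Hoxa3 had 10.3, 10.9 and 10.5 CPM with CD1530 and 8.14, 6.93 and 7.84 with AGN (log2 fold change 0.47 ± 0.10, adjusted p = 0.00243). In both, the groups did not overlap. Hoxa5 lies within the annotated span of Hoxa3, with 2834 shared bases, so reads could be divided between them. Of the 9 TALE homeobox cofactors that bind DNA with Hox proteins, 3 were higher and 0 lower. Meis2 was at 26.02, 24.9 and 26.2 CPM with CD1530 and 18.03, 17.5 and 17.8 with AGN (log2 fold change 0.53 ± 0.09, adjusted p = 0.000134). Pbx2 was at means of 102 CPM with CD1530 and 84.5 with AGN (log2 fold change 0.27). Pknox2 was at means of 44.1 CPM with CD1530 and 36.7 with AGN (log2 fold change 0.27). Of 14 orphan nuclear receptors, 1 was higher, Nr6a1, a repressor of Pou5f1 that is induced by retinoic acid, with 87.1, 84.05 and 88.6 CPM under CD1530 and 62.9, 67.1 and 67.1 under AGN (log2 fold change 0.40 ± 0.06, adjusted p = 7.84e-06).

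The genes with the largest folds higher with CD1530 and a mean of at least 50 counts were Csn3, Arg1, Cyp26b1, Prrt3, Dhrs3, Hic1, Pak6, Metrn, Cyp26a1, Meox1, Hoxa5 and Cdx1. Csn3, the milk protein κ-casein, had 10.7, 8.81 and 7.03 CPM with CD1530 and 1.65, 1.76 and 2.31 with AGN, and 0 counts in the 3 PM libraries. It was at least 59.1-fold higher with CD1530 and at least 12.7-fold higher with AGN than a floor of 3 counts per PM library, and the 2 conditions did not overlap (log2 fold change 2.21 ± 0.18, adjusted p = 8.91e-11). Arg1, arginase 1 of the urea cycle, was at 89.7, 92.4 and 85.4 CPM with CD1530, 32.7, 29.1 and 29.2 with AGN and 2.39, 2.93 and 2.21 in PM. Its difference had the smallest adjusted p of all genes at 6 hours (log2 fold change 1.55 ± 0.07, adjusted p = 8.53e-21), and both conditions lay above PM by 5.14 and 3.59 on the log2 scale. Hic1, a transcriptional repressor of mesenchymal cells, was at 38.4, 42.7 and 40.9 CPM with CD1530 and 22.01, 19.04 and 19.1 with AGN, a gap of 1.02 ± 0.06 in log2 fold change (adjusted p = 6.42e-17). Meox1, a homeobox gene of somites, was at 33.3, 32.1 and 33.3 CPM with CD1530 and 18.6, 18.2 and 19.1 with AGN, and at 6.46, 4.82 and 6.46 in PM (log2 fold change 0.82 ± 0.06, adjusted p = 6.17e-13). Pak6, a p21-activated kinase, Metrn, the secreted protein meteorin, and Prrt3 were low, at means of 3.802, 3.67 and 4.19 CPM with CD1530 and 1.901, 1.96 and 1.85 with AGN, with log2 fold changes of 1.00, 0.90 and 1.16. Calls of these 12 genes held when any of the 6 libraries was left out.

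Among the 12 genes with the largest folds lower with CD1530 and a mean of at least 50 counts were Gpr176, Evx1, Cer1, Rnf150, Nfix, Grem1, Cspg4, Htr1b, Serpina3h, Irs4 and Kif21a. Cer1, a secreted inhibitor of Nodal and BMP signals, had 20.6, 17.7 and 18.9 CPM with CD1530 and 28.9, 30.2 and 29.5 with AGN. All 3 CD1530 libraries were below all 3 AGN libraries (log2 fold change -0.63 ± 0.08, adjusted p = 3.25e-07), and both conditions lay far above PM, at 0.622, 0.236 and 0.377 CPM. Grem1, a secreted BMP antagonist, was at 90.6, 112 and 102 CPM with CD1530 and 151, 144 and 157 with AGN, and the groups did not overlap (log2 fold change -0.56 ± 0.07, adjusted p = 4.83e-06). Its PM level was 139.5, 134 and 124 CPM. Irs4, an insulin receptor substrate, was at 53.03, 52.2 and 51.6 CPM with CD1530 and 72.6, 68.9 and 69.9 with AGN, both above PM at a mean of 0.444 (log2 fold change -0.43 ± 0.08, adjusted p = 0.00248). Serpina3h was at means of 24.4 CPM with CD1530 and 33.1 with AGN (log2 fold change -0.44). It is annotated as a transcribed unprocessed pseudogene, of a serine protease inhibitor family whose near-identical copies could share reads. Calls of Cer1, Grem1, Irs4 and Serpina3h held whichever library was left out. Those of Gpr176 (adjusted p up to 0.135), Rnf150 (0.0909), Nfix (0.0547), Cspg4 (0.0996), Htr1b (0.245), Kif21a (0.0587) and Evx1 (0.0602) were lost without at least 1. The library was AGN replicate 1 for Nfix and Kif21a, CD1530 replicate 3 for Evx1, and AGN replicate 1 or CD1530 replicate 1 for Htr1b. It was AGN replicate 2 or CD1530 replicate 1 for Rnf150, AGN replicate 3 or CD1530 replicate 1 for Cspg4, whose call was also lost in the fits to the compared groups alone (adjusted p up to 0.21), and AGN replicate 1 or 3 or CD1530 replicate 1 or 2 for Gpr176. In Gpr176, an orphan G protein-coupled receptor, the CD1530 libraries were at 1.73, 1.73 and 3.07 CPM and the AGN libraries at 3.98, 3.22 and 3.704.

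**Figure D3:**
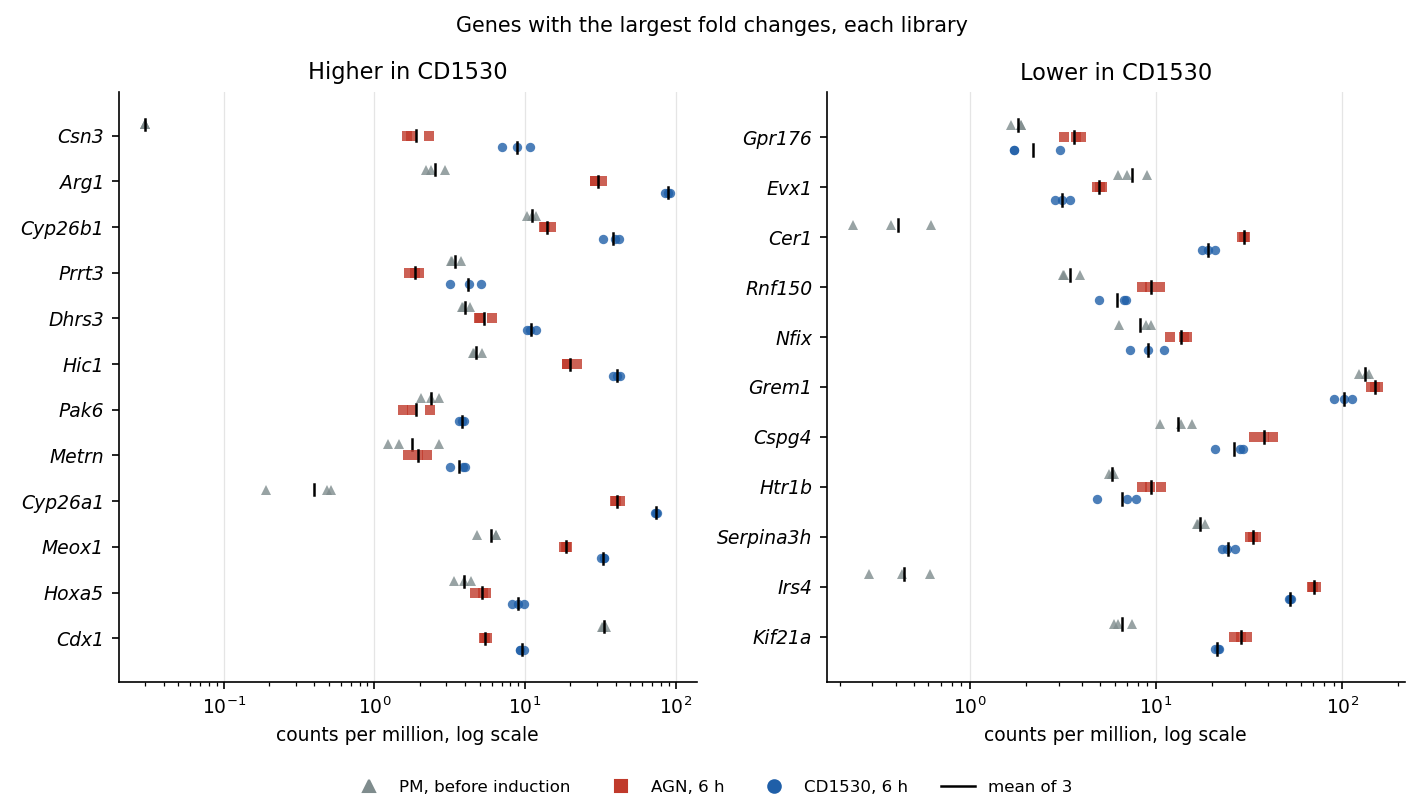
CPM in each library, on a log axis, of 12 of the genes with the largest fold higher and 11 of those with the largest fold lower with CD1530, for PM, AGN and CD1530 at 6 hours with the mean of 3 as a black bar, values under 0.03 CPM being drawn at 0.03. Csn3 lies at 7.03 to 10.7 CPM in CD1530 and 1.65 to 2.31 in AGN, and Cer1 at 17.7 to 20.6 in CD1530 and 28.9 to 30.2 in AGN.

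By difference in CPM rather than fold, abundant genes led. Amot, angiomotin of the Hippo pathway, had 478, 503 and 517 CPM with CD1530 and 657, 649 and 676 with AGN, against a PM mean of 23.4. It was lower in every CD1530 library (log2 fold change -0.40 ± 0.09, adjusted p = 0.0131). Scd2, a stearoyl-CoA desaturase, was at 999.5, 1060 and 1080 CPM with CD1530 and 1173, 1162 and 1189 with AGN (log2 fold change -0.17 ± 0.04, adjusted p = 0.00467). Gpnmb, a membrane glycoprotein, was at 206, 229 and 209 CPM with CD1530 and 261, 262 and 261 with AGN (log2 fold change -0.28 ± 0.04, adjusted p = 2.44e-05). Cad, which carries out the first steps of pyrimidine synthesis, and Emb, a cell adhesion glycoprotein, were also lower with CD1530, with log2 fold changes of -0.17 and -0.14. In the other direction, Junb, an AP-1 subunit, was at 239, 245 and 238 CPM with CD1530 and 194, 189.6 and 195 with AGN (log2 fold change 0.32 ± 0.05, adjusted p = 9.69e-06). Anxa5, annexin A5, was at 345, 346 and 334 CPM with CD1530 and 294, 299.6 and 292 with AGN (log2 fold change 0.21 ± 0.04, adjusted p = 0.00124). Txnrd1, Hmga2 and Igfbp4 were higher by 0.14, 0.16 and 0.12. Calls were lost without 1 library for Amot (AGN replicate 3 or CD1530 replicate 1, adjusted p up to 0.0773), Scd2 (CD1530 replicate 1, 0.0808), Emb (AGN replicate 2 or 3 or CD1530 replicate 3, 0.0897), Txnrd1 (AGN replicate 2 or 3 or CD1530 replicate 1, 0.0673) and Hmga2 (AGN replicate 2 or CD1530 replicate 2, 0.0565), and whichever of the 6 libraries was left out for Cad (up to 0.237) and Igfbp4 (up to 0.15).

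Genes of the Nodal pathway and anterior mesendoderm, the tissues where Nodal signals act in the gastrula, had 4 lower and 0 higher of 15 measured, a negative sign in 13 of the 15 and a median of -0.10. Besides Cer1 the 4 lower genes were Lhx1, Otx2 and Fgf5, and 7 of the 15 had an unadjusted p under 0.05. Lhx1, a homeobox gene, was at 111, 107 and 113 CPM with CD1530, 138, 133 and 132 with AGN and 1.53, 1.23 and 1.62 in PM (log2 fold change -0.28 ± 0.06, adjusted p = 0.00431), and no AGN library reached down to a CD1530 library. Otx2, a head homeobox gene, was at 62.8, 60.4 and 57.9 CPM with CD1530 and 71.4, 72.1 and 74.7 with AGN (log2 fold change -0.27 ± 0.06, adjusted p = 0.00679). Fgf5, a ligand of the epiblast, was at 68.6, 67.5 and 71.4 CPM with CD1530 and 80.3, 85.8 and 79.6 with AGN (log2 fold change -0.24 ± 0.07, adjusted p = 0.0422). Otx2 lost its call without AGN replicate 3 or CD1530 replicate 3 (adjusted p up to 0.0746), and Fgf5 whichever of the 6 libraries was left out (up to 0.24). Nodal itself was at means of 42.8 and 37.6 CPM and was not called (log2 fold change 0.19 ± 0.05, adjusted p = 0.0693).

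In the primitive streak and tailbud list, 1 of 20 genes was higher and 2 were lower, with a median of -0.13. An unadjusted p under 0.05 was found in 13 of the 20, a larger share than the 2008 of all 17120 genes. The sign was negative in 14 and positive in 6. Wnt8a, a streak Wnt ligand, had 3.96, 3.56 and 3.02 CPM with CD1530 and 1.92, 2.34 and 1.78 with AGN (log2 fold change 0.80 ± 0.18, adjusted p = 0.00661). Evx1, a streak homeobox gene, had 3.46, 3.11 and 2.85 CPM with CD1530 and 5.12, 4.98 and 4.81 with AGN (log2 fold change -0.67 ± 0.15, adjusted p = 0.00589). Eomes, a T-box gene of mesendoderm, had 70.5, 70.04 and 70.2 CPM with CD1530 and 83.6, 81.9 and 85.3 with AGN (log2 fold change -0.25 ± 0.06, adjusted p = 0.0104). None of these 3 pairs of groups overlapped, and the calls of Wnt8a (AGN replicate 3 or CD1530 replicate 1, adjusted p up to 0.0692) and Eomes (AGN replicate 1 or 3 or CD1530 replicate 3, up to 0.0805) were lost without 1 library. Brachyury, T, was not called (log2 fold change -0.14, adjusted p = 0.294).

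Of the presomitic and segmentation clock genes, 1 of 16 was called, Snai1, a repressor of epithelial genes, at 77.03, 75.6 and 76.8 CPM with CD1530 and 65.9, 67.4 and 64.2 with AGN (log2 fold change 0.22 ± 0.05, adjusted p = 0.00688). This call was lost without AGN replicate 3 (adjusted p = 0.0691). The median of that list was -0.10. Of 22 somite and sclerotome genes, 2 were higher, Meox1 and Foxc1, and 0 lower, with a median of 0.09. Foxc1, a forkhead gene of paraxial mesoderm, was at 98.01, 102 and 106 CPM with CD1530 and 87.3, 84.4 and 79.9 with AGN (log2 fold change 0.28 ± 0.05, adjusted p = 0.00131). Its call held whichever library was left out. The lists of the later fates had few calls. Of 18 tendon genes, 0 were called and 7 had an unadjusted p under 0.05, a larger share than the 2008 of all 17120 genes. The sign was negative in 13 of the 18 and positive in 5. The median of the tendon list was -0.15. Scx, the reporter's own gene, was at 110, 111 and 112 CPM with CD1530 and 121, 120.4 and 119 with AGN (log2 fold change -0.11 ± 0.04, adjusted p = 0.209). Summed over the tendon list, the CD1530 libraries held 6517, 8425 and 7460 CPM, the AGN libraries 8399, 8024 and 8722 and the PM libraries 2653 to 3262, with the lowest induced value in CD1530 replicate 1. Of 15 cartilage genes, 1 was called, Col9a1, a collagen IX chain, which was higher with CD1530 at 21.97, 23.4 and 19.9 CPM against 18.03, 19.3 and 17.7 with AGN (log2 fold change 0.25 ± 0.06, adjusted p = 0.0197). It lost the call without AGN replicate 1 or 3 or CD1530 replicate 1 or 2 (adjusted p up to 0.176). Sox9, the master factor of cartilage, was not called (log2 fold change -0.09 ± 0.05, adjusted p = 0.48).

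**Figure D4:**
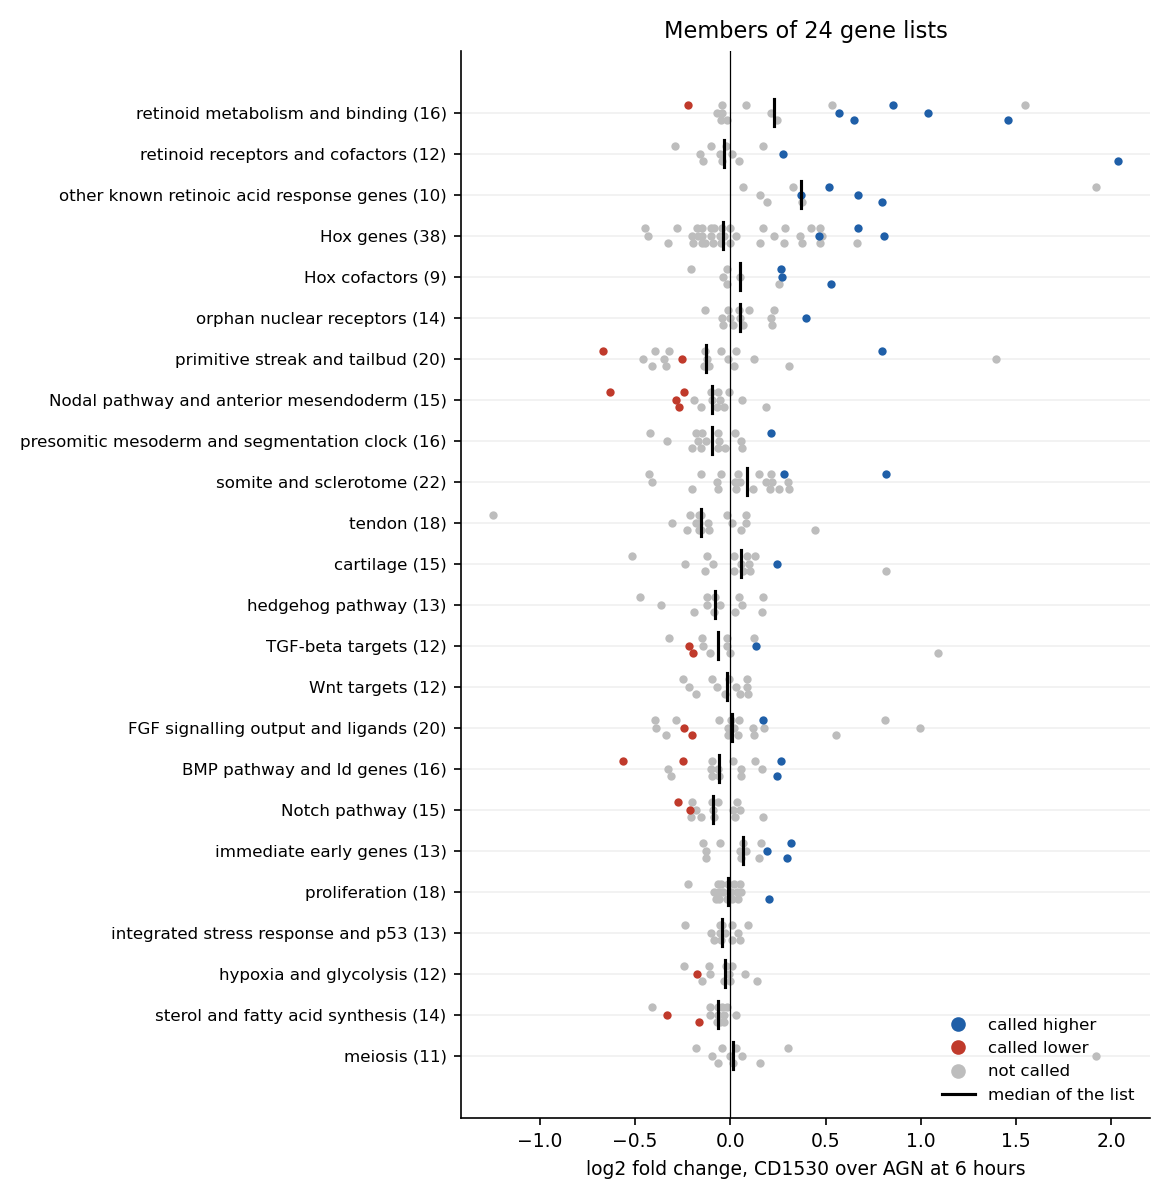
Log2 fold change of CD1530 over AGN at 6 hours for each measured member of 24 gene lists, with the number measured in brackets, called members in blue (higher) or red (lower) and the list median as a black bar. The medians of the retinoid metabolism list (0.23) and of the other retinoic acid response genes (0.37) lie right of the rest, and the tendon list (-0.15) lies farthest left.

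Most genes of the signalling pathways were not called. Calls made up 1.92% of all genes, and the TGF-beta, FGF, BMP and Notch lists each held a larger share. In these lists, in that order, 8 of 12, 7 of 20, 6 of 16 and 4 of 15 had an unadjusted p under 0.05. Of 13 hedgehog pathway genes and 12 Wnt targets, 0 were called, 3 in each had an unadjusted p under 0.05, and the medians were -0.08 and -0.02. Gli1, the usual readout of hedgehog activity, had a log2 fold change of 0.17 ± 0.08 (adjusted p = 0.398). Of 12 TGF-beta targets, 1 was higher and 2 lower, with a median of -0.06. Ccn1 and Ccn2, matricellular proteins, were lower with CD1530. Ccn1 was at 102, 110.3 and 107 CPM with CD1530 and 121, 121 and 124 with AGN (log2 fold change -0.20 ± 0.04, adjusted p = 0.00244). Ccn2 was at 73.5, 83.2 and 77.8 CPM with CD1530 and 90.5, 87.7 and 94.5 with AGN (log2 fold change -0.22 ± 0.06, adjusted p = 0.0287). Tgfbi, a secreted matrix protein, was higher by 0.13 ± 0.03. The calls of Ccn2 (AGN replicate 1 or 3 or CD1530 replicate 1 or 3, adjusted p up to 0.225) and Tgfbi (AGN replicate 1 or 3 or CD1530 replicate 2 or 3, up to 0.146) were lost without 1 library, and that of Ccn1 held.

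For FGF signalling, 1 of 20 genes was higher and 2 were lower, with a median of 0.01. Dusp6, a phosphatase that FGF signals induce, was at 285, 278 and 285 CPM with CD1530 and 254, 246 and 252 with AGN (log2 fold change 0.17 ± 0.03, adjusted p = 0.000215). Fgf4, a stem cell FGF ligand, was at 51.7, 46.5 and 47.1 CPM with CD1530 and 55.2, 56.6 and 54.9 with AGN (log2 fold change -0.20 ± 0.05, adjusted p = 0.0298). This call was lost when any library was left out other than CD1530 replicate 1 (adjusted p up to 0.159). For BMP, 2 of 16 were higher and 2 lower, with a median of -0.06. The ligand Bmp4 was at 34.4, 33.2 and 31.9 CPM with CD1530 and 26.5, 27.9 and 29.6 with AGN, and the target Id2 at 28.99, 34.6 and 27.9 CPM with CD1530 and 24.2, 26.8 and 25.2 with AGN, both higher with CD1530 (log2 fold changes of 0.24 and 0.26). The antagonists Grem1 and Fst were lower, Fst at 38.5, 37.4 and 36.1 CPM with CD1530 and 44.7, 42.8 and 45.1 with AGN (log2 fold change -0.25). Bmp4 lost its call without AGN replicate 1 or 2 or CD1530 replicate 1 (adjusted p up to 0.125), Id2 without AGN replicate 1 or 3 or CD1530 replicate 2 (up to 0.314) and Fst without AGN replicate 1 or 3 or CD1530 replicate 3 (up to 0.0825). For Notch, 0 of 15 were higher and 2 lower, the receptor Notch3 (-0.27 ± 0.06) and the ligand Jag1 (-0.21 ± 0.05), with a median of -0.09. Both calls were lost without AGN replicate 3 or CD1530 replicate 1, and Notch3 also without AGN replicate 1 (adjusted p up to 0.113 and 0.157).

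Of 13 immediate early genes, 3 were higher and 0 lower, with a median of 0.07. Besides Junb these were Egr3 and Ier2. Egr3 was at 18.6, 17.9 and 18.3 CPM with CD1530 and 14.8, 14.8 and 14.96 with AGN, and Ier2 at 225, 216 and 212 CPM with CD1530 and 187, 194 and 189.5 with AGN (log2 fold changes of 0.30 and 0.19). Egr3 lost its call when any library was left out other than CD1530 replicate 2 (adjusted p up to 0.0985) and Ier2 whichever of the 6 was left out (up to 0.184). Lists of general cell state had medians near 0. Of 18 proliferation genes, 1 was higher, the G1 cyclin Ccne1 (log2 fold change 0.21 ± 0.05), with a median of -0.01. Of 13 stress and p53 genes, 0 were called and 3 had an unadjusted p under 0.05, at a median of -0.05. Of 12 hypoxia and glycolysis genes, 1 was lower, hexokinase Hk2 (-0.17 ± 0.04), at a median of -0.03. Of 14 sterol and fatty acid synthesis genes, 2 were lower, Scd2 and the cholesterol exporter Abcg1 (log2 fold change -0.33 ± 0.06, adjusted p = 0.000279), and 13 had a negative sign, at a median of -0.06. Of 11 meiosis genes, 0 were called and 2 had an unadjusted p under 0.05, at a median of 0.02. The calls of Ccne1 (adjusted p up to 0.177) and Hk2 (up to 0.321) were lost without AGN replicate 1 or 3 or CD1530 replicate 1.

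Markers of other cell types moved with the conditions in a few lists, and their part in the results above was not tested. The endothelial list had 2 higher of 10, Etv2 and Tal1, transcription factors of the shared blood and vessel progenitor, at a median of 0.10. Etv2 was at 18.2, 18.7 and 19.2 CPM with CD1530 and 11.9, 12.2 and 11.1 with AGN (log2 fold change 0.67 ± 0.12, adjusted p = 0.000358). Tal1 was at 8.66, 10.3 and 9.93 CPM with CD1530 and 7.503, 6.79 and 7.07 with AGN (log2 fold change 0.44 ± 0.12, adjusted p = 0.0495). The summed level of the list was 269 to 315 CPM in CD1530 and 266 to 272 in AGN. The vessel genes Kdr, Cdh5 and Pecam1 were not called. The 8 blood markers all had a negative sign, with 2 lower, Ptprc and Runx1, a median of -0.26 and summed levels of 80.2 to 85.1 CPM in CD1530 and 96.0 to 100.5 in AGN. Ptprc, which marks white blood cells, was at 1.29, 0.845 and 1.41 CPM with CD1530 and 2.24, 2.05 and 2.31 with AGN, at a mean of 36.2 counts (log2 fold change -0.90 ± 0.23, adjusted p = 0.0253). Runx1 was at 27.8, 32.95 and 32.1 CPM with CD1530 and 36.5, 36.1 and 39.9 with AGN (log2 fold change -0.27 ± 0.07, adjusted p = 0.0141). Tal1 lost its call when any library was left out other than CD1530 replicate 1 (adjusted p up to 0.204), Ptprc without AGN replicate 1 or 3 or CD1530 replicate 1 or 2 (up to 0.175) and Runx1 without AGN replicate 3 or CD1530 replicate 1 (up to 0.196).

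The endoderm list had 2 lower of 11, at a median of -0.07 and summed levels of 547 to 565 CPM in CD1530 and 601 to 607 in AGN. Sox17, a definitive endoderm factor, was at 66.7, 68.7 and 67.02 CPM with CD1530, 79.7, 81.9 and 81.3 with AGN and a mean of 0.968 in PM (log2 fold change -0.26 ± 0.07, adjusted p = 0.0458). Epcam, an epithelial adhesion molecule, was at 175, 174 and 171 CPM with CD1530 and 193, 196 and 195 with AGN (log2 fold change -0.17 ± 0.04, adjusted p = 0.009). Sox17 lost its call whichever of the 6 libraries was left out (adjusted p up to 0.17) and Epcam without CD1530 replicate 3 (0.0611). Of 5 measured neural crest markers, 3 had a negative sign, the median was -0.26 and 1 was higher, the neurotrophin receptor Ngfr, at 108, 109 and 109 CPM with CD1530 and 87.4, 86.1 and 84.96 with AGN (log2 fold change 0.33 ± 0.04, adjusted p = 3.20e-07). Sox10, the defining crest factor, was at means of 3.28 and 3.92 CPM. Of 11 pluripotency markers, Nanog was higher (log2 fold change 0.18 ± 0.04, adjusted p = 0.00268) and Fgf4 lower, at a median of -0.07, while Pou5f1 was not called (log2 fold change 0.04 ± 0.04). Of 10 paraxial mesoderm markers, 1 was higher, Meox1. None of the 12 neural, 6 skeletal muscle, 7 cardiac, 13 2-cell-like and 8 fibroblast markers and 5 sex-linked genes was called, with 2, 1, 1, 0, 2 and 0 of them at an unadjusted p under 0.05 and medians of -0.19, 0.03, 0.14, 0.00, -0.08 and -0.01. The 2-cell-like markers were close to 0, summing to 0.0852 to 0.4 CPM in CD1530 and 0.229 to 0.488 in AGN. The fibroblast markers, which stand for the feeder cells of the stem cell culture, summed to 135 to 150.1 CPM in CD1530 and 141 to 151 in AGN.

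Set beside the cells before induction, most called genes had moved in the same direction in both conditions and differed in how far. Both comparisons use the same 3 PM libraries, and 67.8% of all genes were called in CD1530 against PM and 68.1% in AGN against PM (34.5% and 35% above PM, 33.3% and 33.1% below), so a call in either is the common case. Of the 210 higher genes, 155 were above PM in both conditions, 23 were below PM in both, 14 were above PM with CD1530 and not called with AGN, and 14 were below PM with AGN and not called with CD1530. A further 2 were above with CD1530 and below with AGN, and 2 were called in neither. Of the 119 lower genes, 61 were above PM in both, 29 below in both, 15 below with CD1530 and not called with AGN, 13 above with AGN and not called with CD1530, and 1 was below with CD1530 and above with AGN. Cyp26a1 and Arg1 were examples of the first kind, with log2 fold changes over PM of 7.53 and 5.14 for CD1530 and 6.67 and 3.59 for AGN. Cdx1 was below PM in both, with log2 fold changes of -1.81 and -2.61.

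Between 6 and 18 hours the difference between the conditions widened for some of these genes and closed for others. Over all genes, 3076 (18%) were called at 18 hours, 7.94% higher and 10% lower with CD1530, and the difference itself changed from 6 to 18 hours in 826 (4.82%), upward in 2.29% and downward in 2.54% of all genes, by a test of that change. A fit to the libraries of the compared groups alone called 1236 at 18 hours and 439 for the change. Of the 210 higher genes, the difference changed in 76, of which 54 grew and 22 shrank or turned, and of the 119 lower genes it changed in 47, of which 37 grew and 10 shrank or turned. The genes were chosen on the 6-hour libraries, which the test of the change also uses, so these counts are a description. Cdx1 went from 0.80 ± 0.12 to 4.21 ± 0.20 on the log2 scale, at 11.1, 8.41 and 9.004 CPM with CD1530 and 0.485, 0.534 and 0.503 with AGN at 18 hours. Cer1 went from -0.63 to -3.05, at 24.9, 28.6 and 27.2 CPM with CD1530 and 221, 212 and 233 with AGN. In Cdx1 the AGN level lay below that at 6 hours, and in Cer1 the AGN level lay above it. Cyp26b1 was at 118, 134 and 122 CPM with CD1530 and 16.3, 12.7 and 13.2 with AGN, a difference of 3.14 ± 0.08, with AGN near its 6-hour level.

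At the later times, the 210 higher genes were called with the same sign in 155 at 18 hours and in 162, 144 and 139 at 1.5, 2.5 and 4 days, and with the opposite sign in 5, 12, 34 and 33. The 119 lower genes were called with the same sign in 87, 62, 71 and 70 and with the opposite sign in 2, 21, 17 and 29. Over all genes, 18%, 26.9%, 40% and 46.6% were called in either direction at those times. Cyp26a1 reached a log2 fold change of 6.11 ± 0.08 at 4 days, from 0.85 at 6 hours. Hoxb1 at 4 days had 24.2, 24.4 and 25.3 CPM with CD1530 and 0, 0.12 and 0 with AGN. Col9a1 turned, from 0.25 ± 0.06 at 6 hours to -0.41 ± 0.05 at 18 hours and -3.77 ± 0.06 at 4 days.

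**Figure D5:**
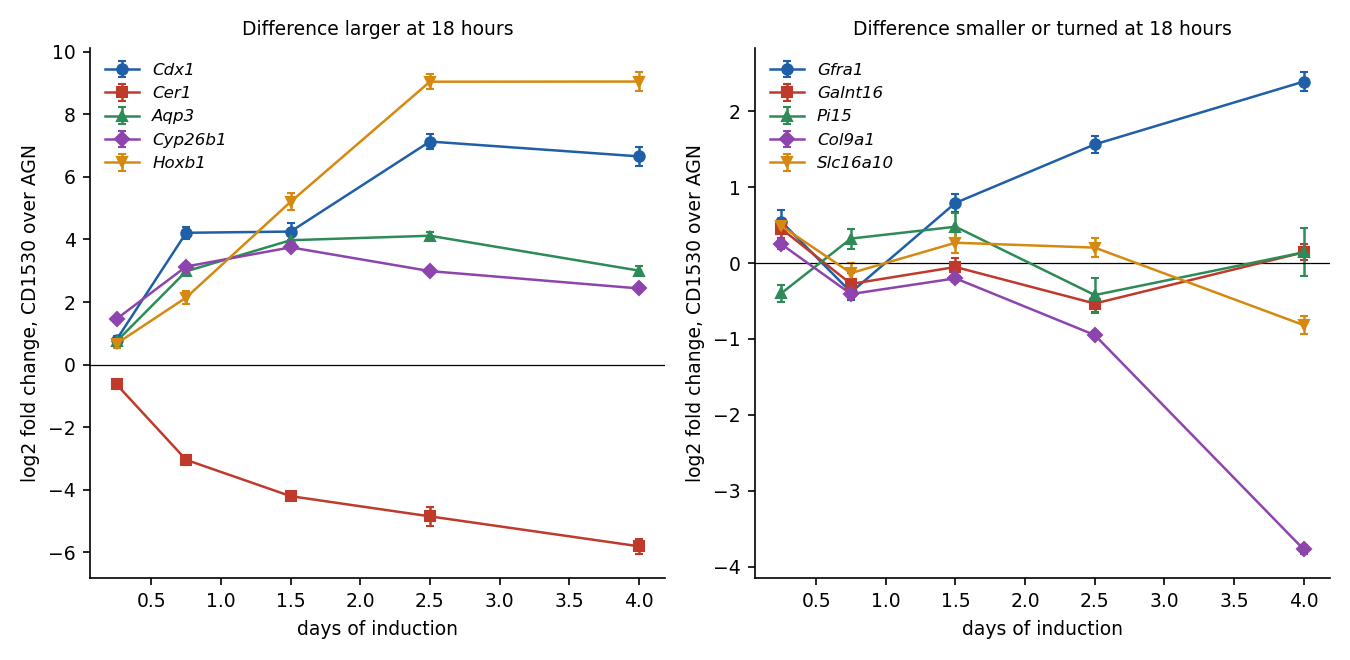
Log2 fold change of CD1530 over AGN against days of induction for 10 genes called at 6 hours (0.25 days), with SE bars, on the left the 5 with the largest growth of the difference by 18 hours and on the right the 5 with the largest decrease or turn. Cdx1 rises from 0.80 to 4.21 and Cer1 falls from -0.63 to -3.05 between the first 2 points, while Col9a1 passes from 0.25 to -0.41. From 1.5 days for Cdx1 and Hoxb1, and from 2.5 days for Cer1, 1 condition was at under 0.5 CPM in every library, so those points depend on the prior count of the fit and are no bound.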

How the data were processed

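RNA of 33 samples was sequenced in pairs of reads on 1 lane. The authors aligned reads to GRCm38 with STAR and deposited raw counts per gene from featureCounts, with edgeR used for their own tests. The table was already filtered, since the third-highest library of each gene reached at least 0.611 CPM. It had 0 columns of no sample. Of 17120 gene identifiers, 17117 matched GENCODE M21. Counts were analysed with R 4.3.3, edgeR 4.0.16, limma 3.58.1, DESeq2 1.42.0 and Python 3.11.15. The 33 libraries entered 1 robust quasi-likelihood fit of 11 group means with TMM scaling, and p-values were adjusted by Benjamini-Hochberg over all genes of a contrast. CPM are TMM-scaled, and SE is the log2 fold change over the root of F. The edgeR filter removed 0 genes. The scripts were tested on simulated data. The study calls its replicates biological, but whether they came from separate cultures on separate days is not stated, so p-values measure the spread between these libraries. Named genes were the 12 largest folds in each direction whose mean reached 50 counts and whose groups were apart, the 6 largest CPM differences in each direction, 5 of each kind of change by 18 hours, and called members of 36 gene lists. The members and lists were chosen with earlier results of these data known. Alternatives were another scaling, filter, test or model, a replicate block, thinned counts, a minimum fold and each library left out. Some genes of these lists and rankings are not reported here. Counting floors cover counting error only.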

Additional observations from a re-analysis of the deposited data

Results flagged for a closer look

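Among the genes called at 6 hours, the difference between CD1530 and AGN changed by 18 hours, by the interaction test of edgeR, in 91 that grew and in 32 that shrank or turned. The genes below are the 5 with the largest change of each kind among those with a mean of at least 50 counts at 6 hours. The difference grew in Cdx1 by 3.42 ± 0.25 on the log2 scale (adjusted p = 3.29e-13), in Aqp3, a channel for water and glycerol, by 2.24 ± 0.17 (5.59e-13), in Cyp26b1 by 1.68 ± 0.12 (1.12e-12) and in Hoxb1 by 1.47 ± 0.26 (0.000117). In Cer1 the change was -2.41 ± 0.10 (1.17e-20), away from 0. Aqp3 had 13.4, 13.6 and 12.7 CPM with CD1530 and 9.24, 6.39 and 7.99 with AGN at 6 hours, and 24.9, 20.2 and 22.3 CPM with CD1530 and 3.48, 2.38 and 2.57 with AGN at 18 hours, so that the groups were apart at both times and the AGN level was the lower one.

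The difference shrank or turned in Gfra1, a receptor for GDNF, with a change of -0.93 ± 0.18 (adjusted p = 0.000489), in Galnt16 with -0.73 ± 0.18 (0.00961), in Pi15 with 0.72 ± 0.17 (0.00613), in Col9a1 with -0.66 ± 0.08 (1.13e-07) and in Slc16a10, an amino acid transporter, with -0.62 ± 0.17 (0.017). Gfra1 had 3.91, 4.71 and 5.24 CPM with CD1530 and 3.71, 2.98 and 2.84 with AGN at 6 hours, and 11.3, 16.6 and 16.6 CPM with CD1530 and 19.4, 18.8 and 20.2 with AGN at 18 hours, where the order of the groups was reversed. The 6-hour calls of Galnt16 (adjusted p up to 0.149) and Gfra1 (up to 0.27) were lost without single libraries, any of the 6 for Galnt16 and AGN replicate 2 or 3 or CD1530 replicate 2 or 3 for Gfra1, and those of Pi15 (up to 0.304) without any but AGN replicate 2 and Slc16a10 (0.0689) without AGN replicate 1.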

How the results depend on the processing

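The count of 329 genes at 6 hours stayed within 1.5 times under both other scalings (326 and 336), no filter (329), a filter at 1 CPM (331), a fit that was not robust (312), the likelihood ratio test (392), voom (361), DESeq2 (366) and thinning to 17116084 counts (267). Library sizes alone gave 230 higher and 106 lower. A fit to the compared groups alone gave 804 (408 higher and 396 lower), or 704 with a replicate block, and a minimum log2 fold change of 0.5 gave 60. For the change from 6 to 18 hours (826) these 3 settings gave 439, 417 and 387, and for 18 hours (3076) they gave 1236, 1046 and 1019. The minimum fold gave 6420 for CD1530 and 6310 for AGN against PM (11607 and 11667). Leaving out 1 library gave 196 to 276 at 6 hours, 662 to 746 for the change, 2984 to 3047 at 18 hours, and 10976 to 11566 for CD1530 and 10985 to 11656 for AGN against PM. No named gene reversed its sign at 6 hours. No sign of pairing by replicate number was seen at 6 hours, though 3 libraries per condition cannot exclude it. Same-numbered libraries had correlations of deviations of -0.0527, -0.0321 and -0.0278 over 15485 genes. A replicate block in the fit of all libraries gave 329 at 6 hours, 829 for the change, 3009 at 18 hours and 11575 and 11626 against PM. Of 83 named genes, 40 kept the call under all 18 alternatives other than the minimum fold, and 43 lost it without at least 1 library. The cause of these changes was not tested. At this depth and replicate number, with simulated log2 changes of 0.25, 0.5 and 1 at 6 hours, 38.2%, 87.9% and 100% were called. These changes were placed only in genes with an expected mean of at least 50 counts. Each gene was given the same spread in all libraries, whereas the CD1530 libraries at 6 hours lay farther apart than the AGN libraries. The shares therefore do not hold for genes of lower count and could be too high for the real libraries.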

Other observations

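The lists in the next sentences were chosen after their values were seen and have no test as lists. All 5 called cholesterol synthesis enzymes of 19 measured were lower with CD1530, Mvk (-0.23 on the log2 scale), Lss (-0.17), Cyp51 (-0.14), Nsdhl (-0.17) and Dhcr7 (-0.17), and the median of the 19 was -0.10. Each of the 5 lost its call in at least 3 of the 6 fits that left out 1 library. Of 5 TAM receptors and ligands, which bind dying cells, Tyro3 (-0.19), Axl (-0.27) and the ligand Gas6 (-0.22) were lower, and Gas6 lost its call without 3 of the 6 libraries. The de novo DNA methyltransferase Dnmt3b had 179.7 CPM with CD1530 and 206 with AGN (log2 fold change -0.20), and its partner Dnmt3l differed by -0.15, a call lost without 5 of the 6 libraries.

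Among 14 Frizzled receptors and secreted Frizzled proteins, Fzd5 (-0.32), Fzd8 (-0.30) and Sfrp1 (-0.29) were lower and Sfrp5 (0.33) was higher. Among 14 feedback genes of MAP kinase signalling, 4 were higher and 0 lower, the phosphatases Dusp5 (0.33), Dusp6 (0.17) and Dusp9 (0.41) and the EGF receptor inhibitor Errfi1 (0.37), and these 4 calls held whichever library was left out. Of 10 macrophage markers, 3 were lower, among them Ptprc and C3ar1 (-0.40), 9 had a negative sign, C3ar1 lost its call without AGN replicate 1 or 3 or CD1530 replicate 1 or 3 (adjusted p up to 0.176), and the summed level was 90.2 to 94.7 CPM in CD1530, 105.8 to 111.8 in AGN and 125.8 to 126.2 in PM, a difference whose source was not tested.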
